A study of Homo sapiens with 12 samples.

Results

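The genes described here are 9 complement components and regulators: C3, C4A, C4B, C1R, C1S, CFI, CFB, CD55 and CD59. They were taken by name from the table of counts, which lists 59653 genes, and all 9 were found. The cells were neurons derived from human induced pluripotent stem cells of IMR-90, an established lung fibroblast line. The control group, siNC, holds 6 libraries of cultures treated with negative control siRNA, and the other group, siZCC, holds 6 treated with ZCCHC17 siRNA, ZCCHC17 being the gene of a zinc knuckle protein. Every library was made from total RNA of this 1 line, and the labels do not explain the NPC in the sample titles. Nothing in the labels says that the 6 libraries of a group came from separate cultures, so p-values measure the spread between these libraries, which may be technical.

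Complement is a cascade of plasma and tissue proteins that tags surfaces for removal and can pierce membranes. In the classical pathway the C1 complex, which holds the proteases C1r and C1s, cleaves C4 and C2, and the resulting enzyme cleaves C3, while factor B forms the C3-cleaving enzyme of the alternative pathway. Regulators hold this back: factor I cuts C3b and C4b, CD55 takes the C3-cleaving enzymes apart, and CD59 blocks assembly of the membrane attack complex. The liver makes most plasma complement, but glia and neurons also transcribe many of these genes, and complement tagging of synapses is a known part of synapse removal by microglia.

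Library totals were 90755953 to 120023356 counts in siNC and 76115083 to 105389055 in siZCC. ZCCHC17 itself was at 54.0 to 61.0 CPM (counts scaled to the library total) in the siNC libraries and 9.37 to 10.6 CPM in the siZCC libraries, and no library went against its label. Of 24671 genes with enough counts to test, 5481 changed at an adjusted p under 0.05 in edgeR's quasi-likelihood test, which is 22.2% of those tested. Of the genes tested, 11.4% were higher and 10.8% lower in siZCC. The median log2 fold change over all genes tested was -0.0016. In a bulk library, fewer cells of a type and less RNA per cell cannot be told apart.

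Those of the 9 genes that passed the test after the ZCCHC17 siRNA were lower: CFI, which encodes factor I, C1R, which encodes the protease C1r, and CD59, which encodes the membrane attack complex inhibitor. These 3 of the 8 complement genes with enough counts to test passed the adjusted threshold, against 10.8% of all genes tested in that direction. The 9 genes were chosen with earlier results of these data known, so this count does not measure an enrichment. The largest change among them was that of CFI, to 63.6% of its siNC level, while C1R stood at 82.2% and CD59 at 84.8%. None of the 8 complement genes tested was called higher with all 12 libraries. At the adjusted threshold the count of higher genes was 0 in edgeR's test and 0 in DESeq2 and limma voom. At an unadjusted p under 0.05, edgeR's main fit gave 0 higher and 4 lower. The unadjusted count in either direction was 5 without the low-count filter, with 1 surrogate variable or with libraries blocked by IL1B counts. The added gene was C3, higher in siZCC. Its log2 fold change was 0.43 to 0.45 in these fits, with an adjusted p of 0.127 to 0.236 in edgeR. The median log2 fold change of the 8 genes tested was -0.15, and 6 of the 8 values were below zero. In none of the 8 did the 2 groups of libraries separate completely, compared with 9.74% of all genes tested. CFB, which encodes factor B, had too few counts to test.

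**Figure D1:**
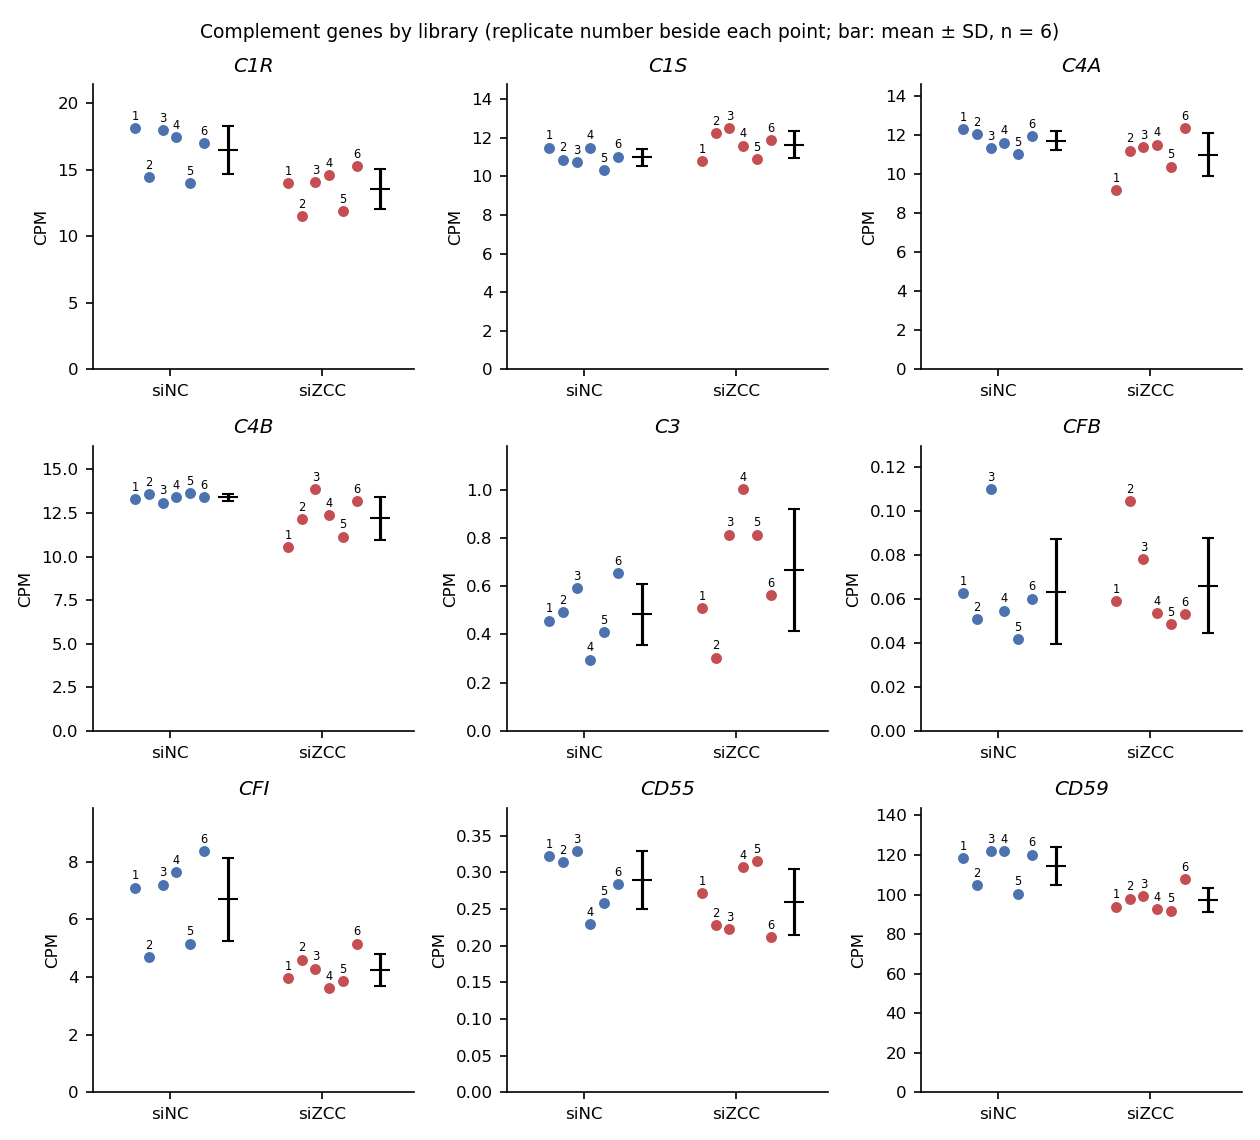
Levels of the complement genes in each library, in CPM scaled by TMM, with 1 panel per gene and its own vertical axis from 0. Each point is a library with its replicate number, and bars give the mean ± SD (n = 6): CFI, C1R and CD59 sit lower in siZCC with some overlap of the groups.

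**Figure D2:**
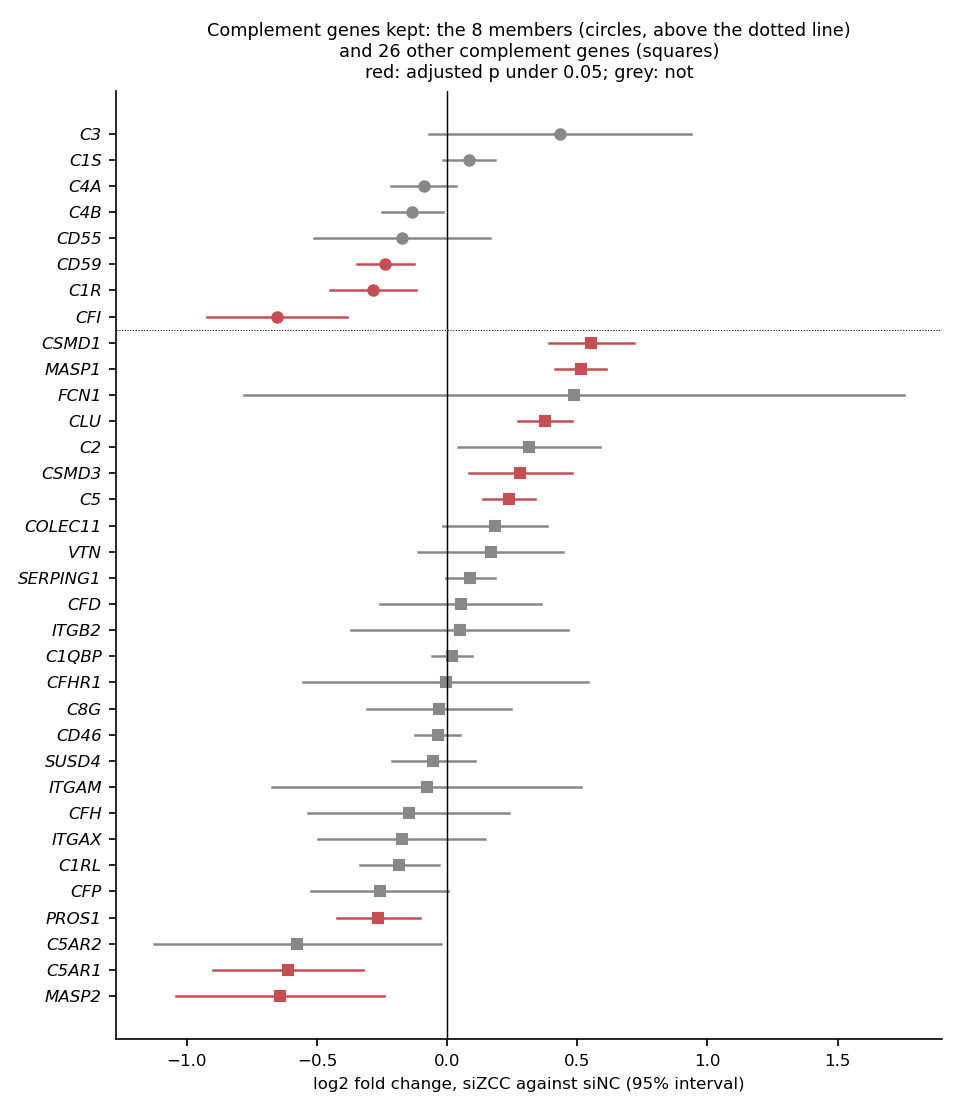
Log2 fold change of siZCC over siNC for the 8 complement genes tested (circles) and 26 other complement genes (squares), with 95% confidence intervals from the quasi-likelihood fit and red for an adjusted p under 0.05. Among the circles, the intervals of CFI, C1R and CD59 lie below 0 and these genes pass the adjusted threshold, that of C4B lies just below 0 without passing it, and the others cross 0.

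Per kilobase of exon, the order of the levels in siNC was CD59, C1R, C4B, C1S, C4A, CFI, C3, CD55 and CFB. CD59 was at 11.1 ± 0.920 CPM per kilobase (SD, n = 6), and C1R followed at 2.81 ± 0.309. C4B at 1.87 ± 0.0270, C1S at 1.70 ± 0.0701, C4A at 1.63 ± 0.0665 and CFI at 1.37 ± 0.297 lay close together. The ranges of C1S, C4A and CFI over libraries overlapped, so the order of these genes is not firm. C3 at 0.0580 ± 0.0154 and CD55 at 0.0490 ± 0.00671 were far lower, and their ranges over libraries overlapped. CFB was lowest, at 0.0127 ± 0.00479 CPM per kilobase. Exon bases shared with other genes of the same strand (32.0% of CFI and 45.0% of CFB), and stretches identical in C4A and C4B, may have lost reads in the counting, so these levels may be understated. In siZCC the same quantity was 9.38 ± 0.584 for CD59, 2.31 ± 0.258 for C1R and 0.871 ± 0.116 for CFI. C1S, at 1.80 ± 0.109, then stood above C4B, at 1.70 ± 0.171, and the ranges of these 2 genes overlapped.

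The proteases of the C1 complex were both well measured, with C1R at 980 to 2129 counts per library. C1R lies at chr12:7080199-7092607 on the minus strand of GRCh38, and C1S lies next to it at chr12:6988259-7071032 on the plus strand. C1R ranged from 14.0 to 18.2 CPM in siNC, with a median of 17.2, and from 11.5 to 15.3 CPM in siZCC, with a median of 14.0. The siNC libraries 2 and 5 were the low ones of their group and overlapped with siZCC, while the other 4 siNC libraries were above every siZCC library. The log2 fold change of C1R was -0.28 (SE 0.0782), with an adjusted p of 0.0151 in edgeR's test. An exact two-sided permutation test of its log2 CPM over all 924 assignments of the libraries gave p = 0.0238.

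C1S, the protease that C1r activates, did not pass the test. It ranged from 10.3 to 11.5 CPM in siNC, with a median of 10.9, and from 10.8 to 12.5 CPM in siZCC, with a median of 11.7. Here 4 of the 6 siZCC libraries were above every siNC library. The log2 fold change was 0.08 (SE 0.0468), the 95% interval ran from -0.01 to 0.18, and the adjusted p from edgeR was 0.216.

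The ratio of C1R to C1S counts separated the groups although neither gene did alone. It was 1.33 to 1.68 in siNC (mean 1.50 ± 0.133, SD, n = 6) and 0.942 to 1.30 in siZCC (mean 1.17 ± 0.141, SD, n = 6). In 6 of 6 siZCC libraries the ratio was below every siNC library. The mean difference was -0.37 on the log2 scale, with p = 0.00216 in an exact two-sided permutation test, the smallest that 6 against 6 libraries can give, and 0.00649 after Benjamini-Hochberg adjustment. This ratio and 2 others were chosen after the values of the single genes had been seen. The adjustment covers those 3 ratios and not that choice, so their p-values are descriptive. How often the ratios of other gene pairs separate the groups was not examined. C1R shares 11.4% of its exon bases with C1RL on the same strand, and C1RL, a C1r-like protease gene, had a log2 fold change of -0.18 (SE 0.0720, adjusted p = 0.0783 in edgeR).

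**Figure D3:**
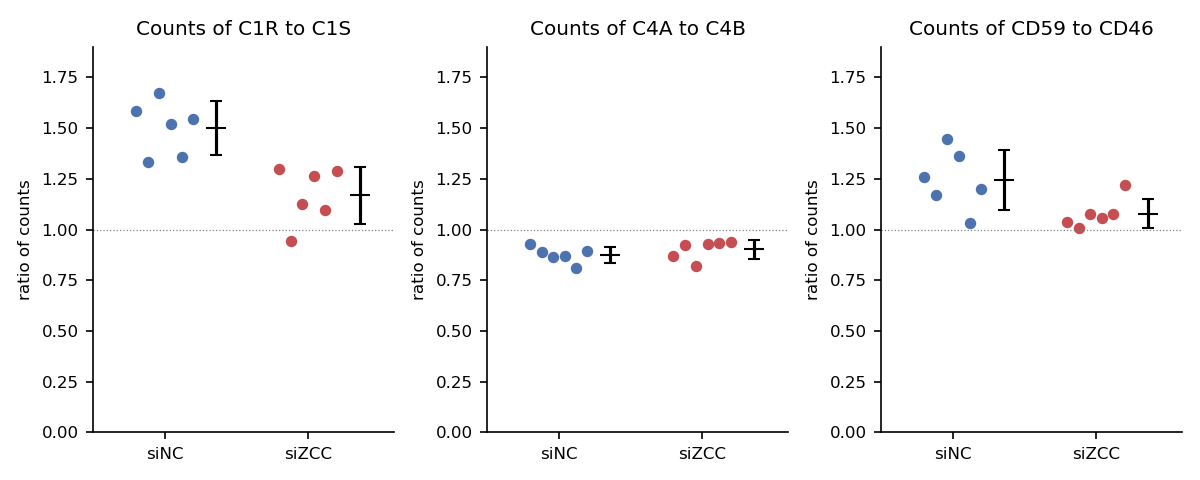
Ratios between pairs of complement genes in each library, of counts, with points for libraries, bars for the group mean ± SD (n = 6) and a dotted line at 1. The ratio of C1R to C1S lies below the siNC range in all 6 siZCC libraries, that of C4A to C4B overlaps between the groups, and that of CD59 to CD46 overlaps with 1 siZCC library below every siNC library.

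The substrate of the C1 proteases is C4, and its 2 genes lie in a duplicated stretch of the major histocompatibility complex, C4A at chr6:31982024-32002681 and C4B at chr6:32014795-32035418, both on the plus strand. Their coding sequences in GENCODE v29 are each 5232 bases long and differ at 13 positions, an identity of 99.8%. Of all stretches of 100 bases in the C4A coding sequence, 87.9% occur unchanged in C4B. The stretch below holds coding bases 3340 to 3375, where 5 of the differences cluster, and is shown because reads can be told apart at such places; capitals mark the differing bases. It encodes the residues by which the C4A and C4B proteins are told apart, and which give C4A its preference for amino groups and C4B its preference for hydroxyl groups when they bind a surface.
C4A: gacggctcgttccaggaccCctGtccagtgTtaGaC
C4B: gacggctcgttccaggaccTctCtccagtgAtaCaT

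How reads shared by both genes were counted is not given in the sources used here, so the split between C4A and C4B is uncertain. C4A ranged from 11.04 to 12.3 CPM in siNC, with a median of 11.8, and from 9.19 to 12.4 CPM in siZCC, with a median of 11.3. C4B ranged from 13.1 to 13.6 CPM in siNC, with a median of 13.4, and from 10.5 to 13.8 CPM in siZCC, with a median of 12.3. In both genes the siZCC libraries spread more widely than the siNC libraries, with an SD of 1.10 against 0.479 CPM for C4A and 1.23 against 0.193 CPM for C4B. Neither gene passed the adjusted threshold in edgeR's test. The log2 fold change was -0.09 (SE 0.0591, adjusted p = 0.305) for C4A and -0.13 (SE 0.0554, adjusted p = 0.0936) for C4B. For C4B the unadjusted p from edgeR was 0.0268, and the exact permutation p was 0.0433. Neither of these p-values was adjusted for the number of genes. In C4B, 4 of 6 siZCC libraries were below every siNC library and 1 was above. The exact permutation p of C4A was 0.18. Without siZCC library 3, C4B passed, at a log2 fold change of -0.18 and an adjusted p of 0.0270 in edgeR. Summed to 1 gene, C4 had a log2 fold change of -0.11 (SE 0.0514, adjusted p = 0.127 in edgeR). The ratio of C4A to C4B was 0.875 ± 0.0391 in siNC and 0.903 ± 0.0467 in siZCC (SD, n = 6 each; exact permutation p = 0.320).

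C3, the component on which all pathways converge, was measured at a low level. The gene lies at chr19:6677704-6730562 on the minus strand and had 27 to 76 counts per library. Its level was 0.295 to 0.653 CPM in siNC, with a median of 0.474, and 0.304 to 1.001 CPM in siZCC, with a median of 0.688. The 3 siZCC libraries 3, 4 and 5 were above every siNC library, and siZCC 2 was lower than 5 of the 6 siNC libraries. The log2 fold change was 0.43 (SE 0.238), the 95% interval ran from -0.07 to 0.94, and the adjusted p from edgeR was 0.212. Without siZCC library 2 the log2 fold change was 0.60 with an adjusted p of 0.0458 in edgeR, so 1 library decided this call.

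CFB, which lies at chr6:31945650-31952084 beside the C4 genes, had 5 to 13 counts per library in siNC and 4 to 11 in siZCC. Its level was 0.0633 ± 0.0240 CPM in siNC (SD, n = 6) and 0.0661 ± 0.0215 CPM in siZCC (SD, n = 6), and a difference was not detectable at this depth. In GENCODE v29, 45.0% of its exon bases are shared on the same strand with the readthrough gene AL645922.1, which had 0 counts in every library.

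CFI, the factor I gene at chr4:109740694-109802179 on the minus strand, showed the largest change of the 8 genes tested that passed. It had 554 to 974 counts per siNC library and 270 to 486 per siZCC library. Its level ranged from 4.70 to 8.37 CPM in siNC, with a median of 7.15, and from 3.60 to 5.15 CPM in siZCC, with a median of 4.12. As with C1R, the siNC libraries 2 and 5 were the low ones, at 4.70 and 5.16 CPM, and siNC 2 overlapped with the top of the siZCC range. The other 5 siNC libraries were above every siZCC library, and 5 of 6 siZCC libraries were below every siNC library. The log2 fold change was -0.65 (SE 0.128), with a 95% interval of -0.92 to -0.38 and an adjusted p of 0.00155 in edgeR. The exact two-sided permutation test gave p = 0.00433. Over the fits that each left out 1 library the log2 fold change ran from -0.74 to -0.58. An overlapping gene of the same strand, AC126283.2, shares 32.0% of the exon bases of CFI and was at 0 to 5 counts per library.

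CD59 lies at chr11:33703010-33736491 on the minus strand and encodes a small lipid-anchored protein of the cell surface. It was the most abundant of the 9 genes, at 100 to 122 CPM in siNC, with a median of 119, and 91.8 to 108 CPM in siZCC, with a median of 95.9. Its siNC libraries 2 and 5 were again the low ones, while the other 4 were above every siZCC library. Here 5 of 6 siZCC libraries were below every siNC library, and siZCC 6 was the exception. The log2 fold change was -0.24 (SE 0.0520), with an adjusted p of 0.00354 in edgeR and an exact permutation p of 0.0108.

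CD46, a membrane cofactor with which factor I cuts C3b, served as a comparison within the same class of proteins. Its level in siNC was 92.5 ± 5.81 CPM (SD, n = 6), that in siZCC 90.2 ± 4.11 CPM (SD, n = 6), with a log2 fold change of -0.04 (SE 0.0412, adjusted p = 0.576 in edgeR). The ratio of CD59 to CD46 was 1.03 to 1.45 in siNC and 1.01 to 1.22 in siZCC. The log2 ratio was lower by a mean of -0.20, with an exact permutation p of 0.0411 and 0.0617 after adjustment over the 3 ratios, which does not pass. Without siNC library 5 or siZCC library 6 it passed, with adjusted exact permutation p-values of 0.0195 and 0.0325.

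CD55, at chr1:207321376-207386804 on the plus strand, was transcribed at a far lower level than CD59. It had 20 to 39 counts per library, and its level was 0.230 to 0.329 CPM in siNC, with a median of 0.299, and 0.212 to 0.316 CPM in siZCC, with a median of 0.250. The groups overlapped, and the log2 fold change was -0.17 (SE 0.160) with a 95% interval of -0.51 to 0.16 and an adjusted p of 0.484 in edgeR. At this depth the interval allows both a moderate fall and a small rise of CD55.

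The promoters of the 3 genes that were lower, and that of CFB as a known target of inflammatory signals, are shown as the 250 bases before the RefSeq start site on the strand of the gene (GRCh38.p14). RefSeq lists 4 starts for CD59 and 2 for C1R, and the window of the most upstream one was used for each gene. The CFI stretch is chr4:109802000-109802249, the C1R stretch chr12:7092446-7092695 and the CD59 stretch chr11:33736480-33736729, all on the minus strand, and the CFB stretch is chr6:31945845-31946094 on the plus strand. Capitals mark matches on either strand to 5 motifs of factors known to act on complement genes.
CFI: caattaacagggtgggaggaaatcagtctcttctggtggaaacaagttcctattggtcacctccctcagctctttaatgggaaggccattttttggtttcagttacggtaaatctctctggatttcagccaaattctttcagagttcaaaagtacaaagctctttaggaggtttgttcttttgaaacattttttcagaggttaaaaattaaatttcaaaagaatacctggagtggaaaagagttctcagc
C1R: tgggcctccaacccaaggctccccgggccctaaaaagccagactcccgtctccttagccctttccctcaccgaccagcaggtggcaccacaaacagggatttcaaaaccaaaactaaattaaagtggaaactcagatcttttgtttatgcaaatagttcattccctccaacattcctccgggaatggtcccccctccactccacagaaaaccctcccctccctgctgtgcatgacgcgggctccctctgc
CD59: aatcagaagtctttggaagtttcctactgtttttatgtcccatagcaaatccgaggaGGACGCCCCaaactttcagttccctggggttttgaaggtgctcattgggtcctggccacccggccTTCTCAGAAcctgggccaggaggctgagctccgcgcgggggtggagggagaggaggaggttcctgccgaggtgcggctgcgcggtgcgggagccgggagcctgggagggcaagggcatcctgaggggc
CFB: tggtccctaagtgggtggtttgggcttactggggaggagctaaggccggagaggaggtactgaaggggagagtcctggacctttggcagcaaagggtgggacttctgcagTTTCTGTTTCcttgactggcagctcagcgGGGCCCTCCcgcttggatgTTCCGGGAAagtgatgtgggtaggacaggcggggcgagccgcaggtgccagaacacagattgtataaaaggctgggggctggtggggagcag

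The motifs searched were TTCNNNGAA for STAT factors, GGGNNNTCC for NF-kB, TTGCGCAA for C/EBP, GAAA repeated after any 2 bases for the interferon response and TGANTCA for AP-1. Over the same window of 27305 promoters they occurred in 6.76%, 18.1%, 0.103%, 3.07% and 6.57%. CD59 held a STAT and an NF-kB match, and CFB held a STAT, an NF-kB and an interferon response match, none of which overlapped. The windows of CFI, C1R and CD55 held no match to these letters. RefSeq promoters were matched for 5 of the 9 genes, and those of C3, C4A, C4B and C1S were not.

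Within groups, CFI and CD59 varied most closely of the pairs of the 9 genes examined. Each library was set against the mean of its group on the log2 CPM scale, and values were correlated over the 12 libraries, as a description without a test. CFI and CD59 gave a Pearson r of 0.92 (Spearman rho 0.92), and 0.90 without siNC 2 and 5, the libraries farthest from the median. C1R and CD59 gave r = 0.73 (rho 0.76), and C1R and CFI gave r = 0.58 (rho 0.52). C1R and its partner C1S gave r = 0.33 (rho 0.29). C4A and C4B gave r = 0.79 (rho 0.59), which fell to 0.49 without the 2 farthest libraries, C4A and C1S gave 0.71 (rho 0.66), and C3 and CD55, both at low counts, gave 0.59. All such points share a library and its scaling.

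**Figure D4:**
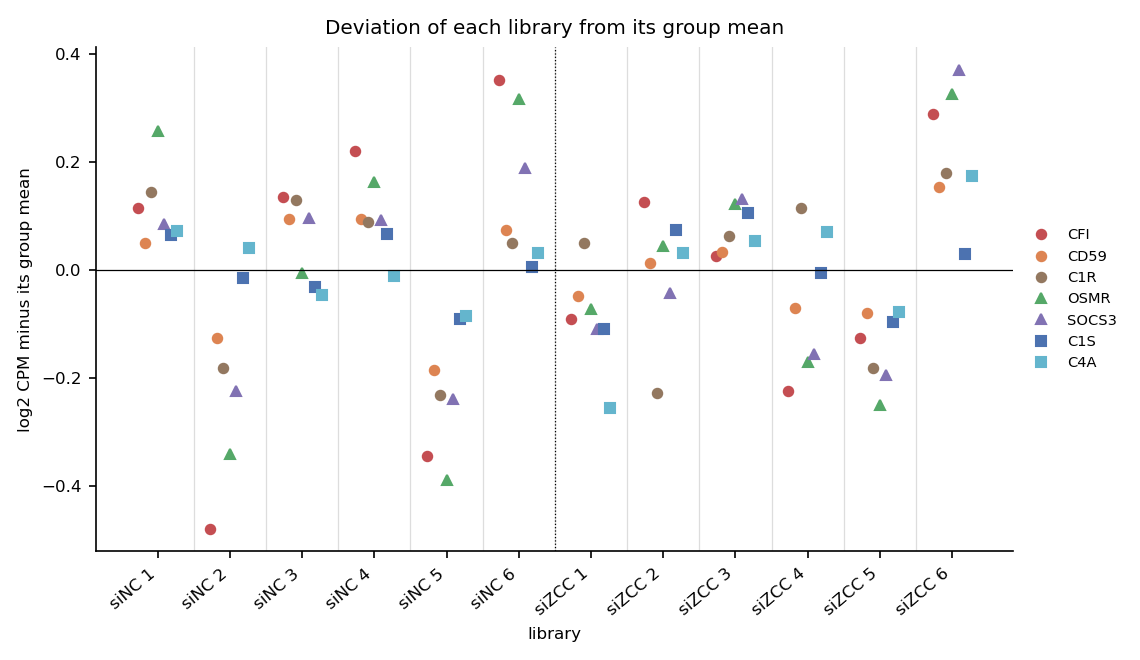
Deviation of each library from its group mean in log2 CPM for 5 complement genes and for OSMR and SOCS3, with 1 marker per gene and library. In siNC libraries 2 and 5 the markers of CFI, C1R and CD59 lie below 0 together.

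The genes whose deviations were most like those of C3, among genes of at least 5 CPM, were AL031121.2 (r = 0.86), RAB8A (0.84), NMB (0.81), MROH8 (0.80) and RPRM (0.78). Without siZCC libraries 2 and 4 these values lay between 0.47 and 0.71. The genes most like CFI by the same measure, a search added after the values of CFI were seen, were C21orf62 (0.97), PRTFDC1 (0.96), EFEMP1 (0.94), PON2 (0.94) and IFT80 (0.94).

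The rest of the cascade was taken from a list of 52 other complement genes, of which 26 had enough counts to test, and calls were made in both directions. Of these 26, 5 were higher and 3 lower in siZCC, against 11.4% higher and 10.8% lower of all genes tested, so the share of lower genes was near the background. Their median log2 fold change was 0.01. MASP1, a protease of the lectin pathway, rose from 33.5 ± 1.15 to 47.8 ± 3.87 CPM (SD, n = 6 each), a log2 fold change of 0.51 (SE 0.0459, adjusted p = 1.41e-06 in edgeR). CLU, whose product clusterin inhibits the membrane attack complex, rose from 870 ± 33.4 to 1127 ± 102 CPM, a log2 fold change of 0.37 (SE 0.0490, adjusted p = 5.12e-05 in edgeR). Against CLU, the gene for another inhibitor of that complex, CD59, was lower. CSMD1, which encodes a membrane regulator of complement, rose from 34.5 ± 5.37 to 50.7 ± 2.98 CPM, a log2 fold change of 0.55 (SE 0.0771, adjusted p = 9.30e-05 in edgeR). C5, the component cleaved at the start of the terminal pathway, rose by 0.24 on the log2 scale (SE 0.0467, adjusted p = 0.00163 in edgeR). The fifth, CSMD3, had a log2 fold change of 0.28 and an adjusted p of 0.0405 in edgeR, while DESeq2 gave 0.0662. It kept its call in edgeR in 4 of 12 fits without 1 library, those that left out siNC 5 or 6 or siZCC 3 or 6.

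C5AR1, the receptor for the C5a fragment, fell from 4.20 ± 0.752 CPM (SD, n = 6 siNC) to 2.74 ± 0.582 CPM (SD, n = 6 siZCC), a log2 fold change of -0.61 (SE 0.137, adjusted p = 0.00414 in edgeR). PROS1, which encodes protein S, a carrier partner of C4b-binding protein, had a log2 fold change of -0.26 (SE 0.0755, adjusted p = 0.0185 in edgeR). The third lower gene, MASP2, lay under 1 CPM and is named only because the count is small, and its call was lost without siNC library 1 (adjusted p = 0.0541 in edgeR). SERPING1, the gene of the inhibitor that blocks C1r and C1s, had a log2 fold change of 0.09 (SE 0.0443, adjusted p = 0.167 in edgeR). The genes with too few counts to test included those for the 3 chains of C1q, C6, C7, the alpha and beta chains of C8, and C9, as well as CR1, CR2 and C3AR1. A change in these genes was not detectable at this depth.

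A list of 42 genes for cytokines, receptors and transcription factors known to act on complement transcription gave 38 that could be tested, with 4 higher and 9 lower. The shares over all genes tested were 11.4% higher and 10.8% lower, so the count of higher genes was near the background. OSMR, the oncostatin M receptor, was lower, at 20.4 ± 4.12 CPM in siNC and 12.2 ± 1.82 in siZCC (SD, n = 6 each), with a log2 fold change of -0.74 (SE 0.120, adjusted p = 3.53e-04 in edgeR) and no overlap of the groups. SOCS3, the feedback inhibitor of that signalling route, had a log2 fold change of -0.51 (SE 0.0918, adjusted p = 8.25e-04 in edgeR). Both varied with CFI and CD59 within groups: CFI gave r = 0.93 with OSMR and 0.88 with SOCS3, and CD59 gave 0.92 and 0.94. Without siNC 2 and 5 these values were 0.88 and 0.85 for CFI, and 0.85 and 0.94 for CD59. The other genes of the list were not correlated with CFI or CD59 by name. Such values are not particular to OSMR and SOCS3, since C21orf62, outside the list, gave 0.97 with CFI. IFNGR2 and RELB were lower by smaller amounts, with log2 fold changes of -0.12 and -0.19, and RELB lost its call without siNC 3, siZCC 1 or siZCC 4 (adjusted p of 0.0506 to 0.0545 in edgeR). On the higher side, CEBPB had a log2 fold change of 0.55, IL6R 0.34, NFKB2 0.21 and RELA 0.13, with adjusted p-values from edgeR of 0.00369, 0.00359, 0.00106 and 0.0150.

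IL1B, the gene of a cytokine known to raise C3 and CFB, split the libraries regardless of the siRNA. In 6 libraries, siNC 2, 3 and 6 and siZCC 1, 4 and 5, it had 449 to 1512 counts, and in the other 6 it had 2 to 12. Its log2 fold change between the siRNA groups was 0.33 (SE 1.05, adjusted p = 0.859 in edgeR). C3 was at 0.579 ± 0.0814 CPM in the siNC libraries with high IL1B and 0.387 ± 0.0828 in those with low IL1B (SD, n = 3 each). In siZCC, C3 was at 0.774 ± 0.249 CPM in the libraries with high IL1B and 0.560 ± 0.254 in those with low (SD, n = 3 each). The siNC ranges of C3 did not overlap between the sides, and the siZCC ranges did. The siNC gap was narrow, from 0.457 CPM on the low side to 0.492 CPM on the high side, at 27 to 76 counts per library. Whether C3 follows IL1B was not tested. CFI was at 6.76 and 6.64 CPM on the high and low sides in siNC, and at 3.81 and 4.68 CPM in siZCC. CD55 was at 0.309 and 0.270 CPM on the high and low sides in siNC, and at 0.298 and 0.221 CPM in siZCC. CFB was at 0.0736 and 0.0530 CPM on the high and low sides in siNC, and at 0.0537 and 0.0785 CPM in siZCC, so the order of the sides differed between the groups, at counts of 4 to 13 per library.

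**Figure D5:**
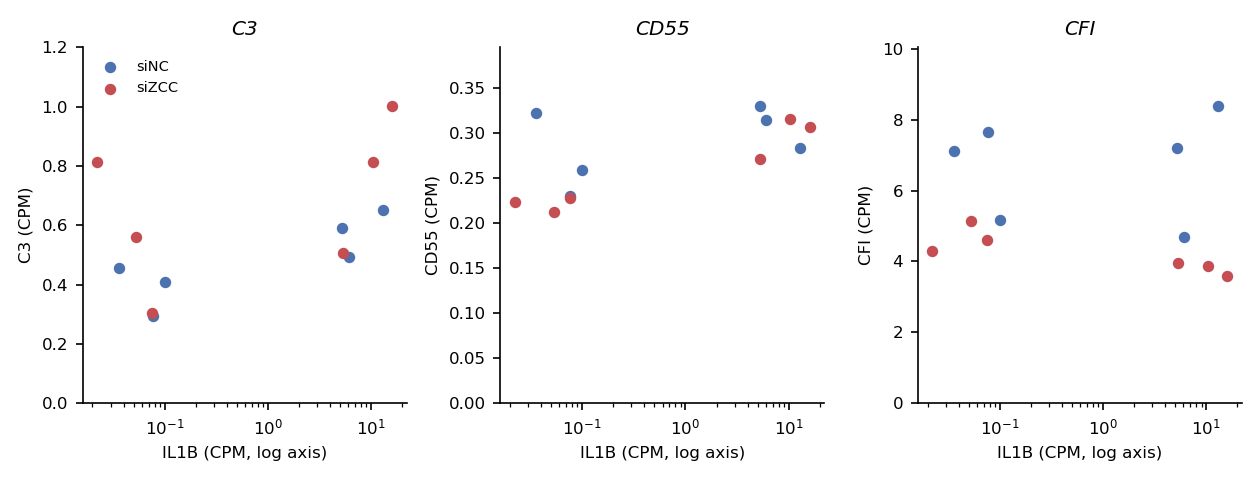
Levels of C3, CD55 and CFI (CPM, linear axis from 0) against IL1B (CPM, log axis), with 1 point per library and siNC and siZCC as separate colours. IL1B forms 2 clusters of 6 libraries, and within both the 3 siZCC libraries lie below the 3 siNC libraries in CFI.

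Within each side of the IL1B split only 3 libraries stood against 3. On the side with high IL1B the log2 fold change was -0.83 for CFI (adjusted p = 0.0178 in edgeR), -0.32 for CD59 (adjusted p = 0.00886) and -0.29 for C1R (adjusted p = 0.0824). On the side with low IL1B it was -0.50 for CFI (adjusted p = 0.0535 in edgeR), -0.16 for CD59 (adjusted p = 0.197) and -0.28 for C1R (adjusted p = 0.175). The direction was the same on both sides for these 3 genes. On the low side 0 of the 8 genes passed in edgeR, where 1602 of all 24824 genes tested passed. An unadjusted p under 0.05 was found for 3 of the 8 and for 5693 of the 24824. Another tool was not run on that side. In CFI all 3 siZCC libraries were below all 3 siNC libraries on both sides, where the lowest siNC library was at 5.16 and the highest siZCC library at 5.15 CPM on the low side. Whether the sides differ was not tested.

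Markers of other cell types were read against the shares of all genes tested, 11.4% higher and 10.8% lower. The 8 astrocyte markers summed to 1637 to 1860 CPM in siNC and 1704 to 2025 CPM in siZCC, ranges that overlapped. Of these, ALDOC (log2 fold change 0.98), ALDH1L1 (0.42) and SLC1A3 (0.30) were higher, AQP4 (-0.21) was lower, and GFAP had a value of 0.09 (adjusted p = 0.625 in edgeR). C1R and C4A varied with GFAP within groups, at r = 0.82 and 0.74. The 9 fibroblast or mesenchymal markers summed to 245 to 481 CPM in siNC and 222 to 353 CPM in siZCC, with 1 higher (PDGFRB, 0.42 on the log2 scale) and 4 lower (PDGFRA, DCN, LUM and THY1, -0.64 to -0.12). Endothelial markers summed to 12.4 to 17.6 CPM in siNC and 8.62 to 10.7 CPM in siZCC, ranges that did not overlap. Of 5 tested, 2 were lower, TEK (-0.75) and CLDN5 (-0.64). These 2 genes made up most of the sum, at a mean of 9.46 and 4.35 CPM in siNC. PECAM1 (0.04), VWF (0.37) and KDR (-0.15) did not pass, and CDH5 had too few counts to test. PECAM1 and VWF were at a mean of only 0.268 and 0.0894 CPM in siNC. Choroid plexus or ependymal markers summed to 86.2 to 113 CPM in siNC and 62.8 to 90.7 CPM in siZCC, ranges that overlapped. Of 4 tested, 3 were lower, FOXJ1, KCNJ13 and FOLR1. FOXJ1 alone made up most of the sum, at a mean of 90.2 CPM in siNC and 68.2 CPM in siZCC. AQP1 (-0.01) did not pass, and TTR and CLIC6 had too few counts to test. Oligodendrocyte lineage markers summed to 147 to 184 CPM in siNC and 150 to 184 CPM in siZCC, with 1 lower of 5 tested, PDGFRA. Their part in the lower CFI, C1R and CD59 was not tested.

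Microglial or macrophage markers were near zero: 10 of them summed to 1.66 to 3.24 CPM in siNC and 1.94 to 2.97 CPM in siZCC. Of the 4 that could be tested, 0 passed in edgeR and 0 had an unadjusted p under 0.05. P2RY12, a defining marker of microglia, was at no more than 0.0676 CPM in any library. Hepatocyte markers summed to 1.44 to 2.24 CPM in siNC and 1.49 to 3.34 CPM in siZCC, and 0 of 4 tested passed, also at an unadjusted p under 0.05. The 9 neuronal markers summed to 2610 to 3029 CPM in siNC and 2407 to 2765 CPM in siZCC, with DCX (log2 fold change -0.23) and STMN2 (-0.17) lower and SYT1 (0.12) higher. The 8 neural progenitor markers summed to 5751 to 6132 and 5802 to 6327 CPM, with SOX2 (0.20), PAX6 (0.15) and HES5 (0.35) higher and FABP7 (-0.31) lower. The part of these shifts in the results above was not tested. The markers of the labelled cell type, the neuron, were thus present beside high levels of progenitor and astrocyte markers. Their siNC means ran from 1.27 CPM for RBFOX3 to 1027 CPM for MAP2. Of the listed markers of any type, 0 were at 0 counts in all libraries, which does not show that each cell type was present. TTR, for example, had 0 to 1 counts per library in siNC and 0 to 6 in siZCC.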

How the data were processed

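Per the labels' protocols, neurons derived from IMR-90 stem cells were lysed in Qiazol and their total RNA went into NEBNext Ultra II Directional libraries. The authors deposited whole-number read counts per gene symbol, 1 column per library, which were used as deposited. The submitters' processing notes name GRCh38, bcl2fastq 2.17, STAR 2.7.6a and featureCounts 2.0.1, while the annotation and the settings for strand and for reads that match several genes are not given in the sources used here. Groups and replicate numbers came from the sample titles.

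Genes were kept by filterByExpr in edgeR 4.0.16 (R 4.3.3) with a minimum count of 10, which left 24671 of 59653 genes. Libraries were scaled by TMM, and siZCC was compared with siNC over all 12 libraries by the quasi-likelihood test without covariates. The p-values of all genes kept were adjusted together by Benjamini-Hochberg, with calls at an adjusted p under 0.05, and an SE is the log2 fold change divided by the square root of F. Log2 CPM used a prior count of 2. Exact permutation tests were two-sided over all 924 assignments of the libraries, with 0.00216 the smallest p possible. The fit was tested on simulated data. Positions, exon lengths and C4 sequences came from GENCODE release 29, and promoters from RefSeq (GRCh38.p14).

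The 9 genes and the lists were chosen with earlier results of these data known. Named beside the 9 genes were other complement genes with an adjusted p under 0.05 and at least 1 CPM, the 4 smallest p-values per direction in the list of inducers, IL1B, ZCCHC17 and the 5 genes most like C3. Alternatives were other scalings (DESeq2 1.42.0 size factors, upper quartile), filters and tests (DESeq2, limma 3.58.1 voom), a replicate block, a surrogate variable (sva 3.50.0), thinned depth, C4A and C4B summed, and each library left out. The ratios, the genes most like CFI, and a split of the libraries by IL1B counts, as a block and in separate fits, were added after seeing the data.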

Additional observations from a re-analysis of the deposited data

Results flagged for a closer look

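In 60 groups of 6 libraries, 30 quantities in each siRNA group, 5 values stood apart from the rest of their group by Dixon's 95% criterion, where about 3 are due by chance. CFB was highest in siNC library 3, at 0.110 CPM against 0.0417 to 0.0627 CPM in the other 5. The log2 ratio of CD59 to CD46 was highest in siZCC library 6, at 0.28 against 0.01 to 0.11 in the other 5. RELB was highest in siNC library 3, at a log2 CPM of 2.71 against 2.47 to 2.54. IL6R was lowest in siZCC library 5, at a log2 CPM of 1.535 against 1.79 to 1.89. The total count of siNC library 4 was the lowest of its group, at 90756000 against 109970000 to 120020000 in the other 5 (rounded to 5 digits).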

How the results depend on the processing

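With all 12 libraries, CFI, C1R and CD59 passed, and no other of the complement genes did, under each of 11 other settings of scaling, filter, test, covariates, depth or a summed C4. Over those settings with all genes fitted the count of genes called ran from 4785 to 5986, against 5481, and the count among the 26 other complement genes from 7 to 9. Leaving out 1 library gave 4484 to 5626 genes, 3 to 4 of the 9 complement genes and 6 to 9 of the others, and log2 ratios of CD59 to CD46 of -0.25 to -0.16. The replicate block gave 4902 genes (2489 higher, 2413 lower) and left the 3 calls in place, with an adjusted p of 4.68e-04 for C1R in edgeR. Over all genes tested, same-numbered libraries did not vary together (correlations -0.077 to 0.018). In C1R, however, libraries 2 and 5 were the low ones of both groups. The labels do not say whether the numbers pair the libraries, and a correlation over all genes cannot settle it for 1 gene. The libraries with high or with low IL1B, a choice made after seeing the data, were fitted apart, 6 at a time. The high side gave 2043 of 24925 genes (1051 higher, 992 lower), with 2 of 8 complement genes and 6 of 27 others. The low side gave 1602 of 24824 genes (870 higher, 732 lower), with 0 of 8 complement genes and 3 of 26 others. The cause of the calls of C1R, CFI or CD59 lost there was not tested. CSMD3 lost its call in 8 of 12 fits without 1 library. IL1B turned to -0.46 in limma voom, -0.040 with the surrogate variable and ran from -0.41 (without siZCC library 4) to 1.16 when 1 library was left out, passing in none. Low counts limit C3, CD55 and CFB.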
